A study of Homo sapiens with 4 samples.

Results

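The endoplasmic reticulum (ER) chaperones and unfolded protein response genes were compared between untreated SH-SY5Y cells and SH-SY5Y cells treated with sodium nitroprusside (SNP). The set was given by name and holds 10 of the 58243 genes listed in each table: HSPA5, HSP90B1, HYOU1, CALR, CANX, PDIA3, PDIA4, PDIA6, XBP1 and HERPUD1. SH-SY5Y is an established neuroblastoma cell line, and SNP is a donor of nitric oxide. The control group (ctr) had 2 libraries, a and b, from cells that received no agent, and the SNP group (OS1, described as Oxidized State) had 2 libraries, a and b, from cells exposed to SNP for 8 h. The labels speak of several SNP doses without naming the one that was sequenced, and they call the treated cells differentiated with retinoic acid, an agent that the entries for the individual libraries do not list. All cells grew in the same serum-containing medium. The labels call the RNA of the treated cells oxidized and name no step that selected oxidized RNA. They describe triplicate wells within 1 experiment and a series sequenced in duplicate, and they do not say whether the a and b libraries came from separate cultures. The p-values therefore measure only the spread between these libraries, which may be technical, and any batch that coincides with the treatment cannot be told apart from it.

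The ER folds proteins that enter the secretory pathway. HSPA5 (BiP) holds unfolded chains and, when misfolded protein accumulates, leaves the sensors IRE1, PERK and ATF6 free to signal. IRE1 splices the XBP1 messenger RNA, cleaved ATF6 enters the nucleus, and both resulting transcription factors raise chaperone genes through a promoter sequence named the ER stress element, while PERK slows translation and favours ATF4.

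Gene counts summed to between 5613144 and 8056550 per library, and a count of 3 corresponded to between 0.372 and 0.534 CPM (counts scaled to a fixed library total), so every one of the 10 genes was counted well above that floor. Levels are given as CPM after scaling the libraries to a common size. Where genes are compared with each other they are given as TPM, the share of transcripts, which also corrects for length. The length is that of all annotated exons of a gene together. The length of the transcripts in use was not measured, and the order of genes by TPM depends on it. Of the neuroblastoma markers of the adrenergic kind, 7 of 8 exceeded 10 TPM in all 4 libraries, with summed levels of 3396 and 3595 TPM in control and 2607 and 3011 TPM in SNP, while TH was listed at 0 throughout. Among 7 mesenchymal markers 2 (TWIST1 and SNAI2) exceeded 10 TPM in all libraries, with sums between 352 and 418 TPM, and the blood markers PTPRC and HBB were at 0. The adrenergic sum was lower in SNP, and its part in the results below was not tested. In a bulk library, fewer cells of a kind and less RNA per cell cannot be told apart.

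The element was searched in RefSeq promoter windows (GRCh38.p14, from 250 bases before to 50 bases after each annotated start, both strands), because it is the sequence through which these genes are known to be controlled together. Its first form is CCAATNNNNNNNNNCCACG and the second form is ATTGGNCCACG. The first form lay in 27 of 35116 windows (0.0769%), the second in 19 (0.0541%), and either in 46 (0.131%). Of the 9 genes of the set with a window, 8 had either form in at least 1 window, 6 the first and 2 the second. Over all genes with a window, 44 of 27305 had either form. The set was defined as targets of ATF6 and XBP1, so a high share was built in and is no result of these data. The stretches below run 5′ to 3′ on the strand that carries the element, with its fixed letters in capitals and 5 flanking bases on each side.
HSPA5: cttcaCCAATcggcggcctCCACGacggg
HSP90B1, distal: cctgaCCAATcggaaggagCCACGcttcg
HSP90B1, proximal: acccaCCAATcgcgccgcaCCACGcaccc
CALR: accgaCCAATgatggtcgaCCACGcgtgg
CANX: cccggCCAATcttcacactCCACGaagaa
PDIA6: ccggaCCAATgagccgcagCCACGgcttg
XBP1: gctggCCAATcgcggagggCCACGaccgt
HYOU1, distal: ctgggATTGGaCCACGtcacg
HYOU1, proximal: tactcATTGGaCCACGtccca
HERPUD1: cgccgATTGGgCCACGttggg

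The element of HSPA5 lay 66 to 48 bases before the start, in the stretch chr9:125241386-125241414. HSP90B1 carried 2 copies, at 194 to 176 bases (chr12:103930211-103930239) and, on the opposite strand, at 89 to 71 bases (chr12:103930316-103930344). The other stretches were chr19:12938379-12938407 for CALR (225 to 207 bases, opposite strand), chr5:179698773-179698801 for CANX and chr2:10812848-10812876 for PDIA6 (86 to 68 bases). CANX has several annotated starts, and its element lay 151 to 133 bases or 189 to 171 bases before a start. Across a further start of CANX it ran from 9 bases before to 9 bases after. The XBP1 stretch was chr22:28800598-28800626 (52 to 34 bases). For the second form they were chr11:119057375-119057395 and chr11:119057269-119057289 in HYOU1 (185 to 175 and 79 to 69 bases, opposite strand) and chr16:56932020-56932040 in HERPUD1 (117 to 107 bases). In GENCODE 29, the stretches of HSP90B1 and CANX also touch exons of other transcripts of these genes that start further upstream or nearby. The shorter letters TGACGTGG, a core bound by ATF6 and XBP1, were found in 0.729% of all windows and, within the set, in HYOU1 alone, where they overlap its distal element, and TGACGTGA was found in 0.450% of windows and in none of the set. PDIA4 had none of the 4 searched sequences in its window. A match describes these letters only, and the 8 genes that share the element did not move together, as follows.

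Of the 10 genes, 6 rose with SNP, none was called lower and 4 did not pass the test. The set was chosen with earlier results of these data known, so the shares beside it are a description only. A gene was called when the quasi-likelihood test of edgeR across all 14759 genes tested gave an adjusted p under 0.05 (Benjamini-Hochberg). The background was broad: 26.2% of all genes tested were called, 13.6% higher (2002 genes) and 12.6% lower (1859 genes). Scaling the libraries by the read totals implied by the RPKM values in place of the counts turned this into 2085 higher and 1218 lower, and left 6 of the 10 genes called higher. The median log2 fold change (SNP over control) of the 10 was 0.52, against -0.0042 over all genes tested. Both SNP values lay above both control values in 7 of the 10 genes, and in 31.7% of all genes tested. They lay below both control values in 2 of the 10 genes, and in 4768 of the 14759 genes tested. Together the 10 genes held 0.125% and 0.143% of the gene counts in control and 0.208% and 0.192% in SNP, so the groups did not overlap. Their summed level went from 1345 ± 112 CPM to 2006 ± 144 CPM (SD, n = 2 each), a ratio of 1.49, and the two-sided exact permutation test gave p = 0.333, the smallest p that 2 against 2 libraries allow.

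**Figure D1:**
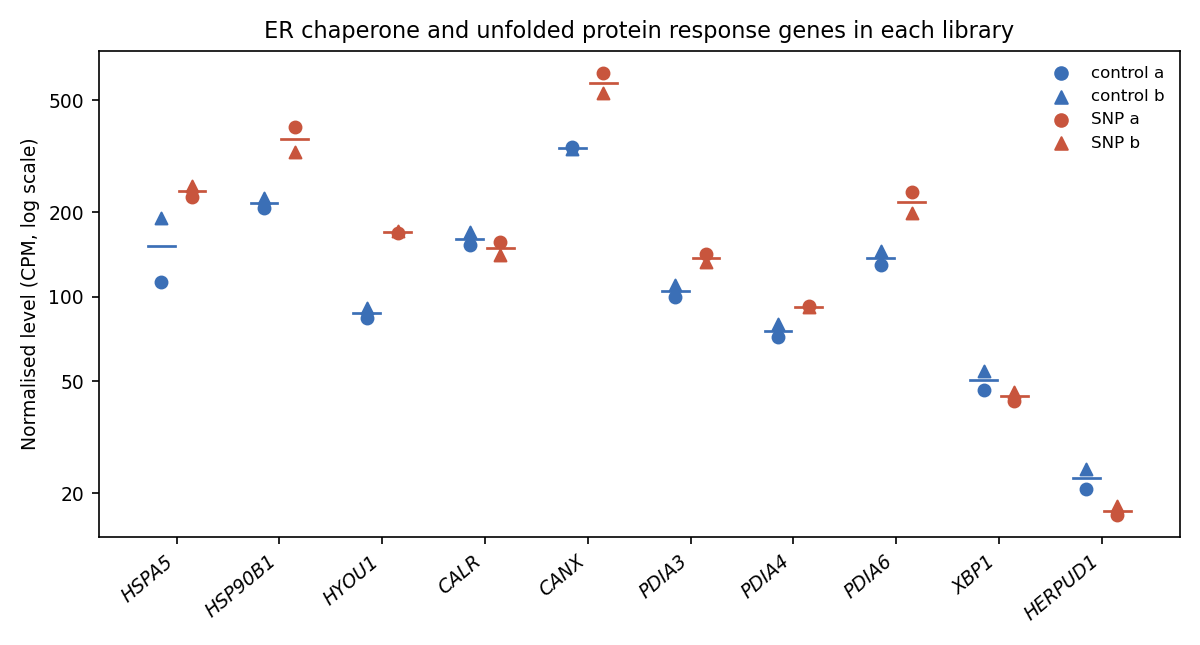
Level of each of the 10 genes in each library, in CPM on a log axis. Points are libraries (circle a, triangle b; blue control, red SNP) and bars are group means. SNP lies above control in 7 genes, the groups overlap in CALR, and SNP lies below control in XBP1 and HERPUD1, while the control libraries of HSPA5 stand far apart.

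Among the large chaperones, HSPA5 (ENSG00000044574, chr9:125234853-125241330, minus strand, GRCh38) is the Hsp70 of the ER and its best known stress marker. Its level was 113 and 190 CPM in control a and b, and 227 and 249 CPM in SNP a and b. Both SNP libraries were above both controls, but the controls lay 0.75 apart on the log2 scale, far more than the 0.13 between the SNP libraries. The log2 fold change was 0.65 (SE 0.150, 95% interval 0.34 to 0.97), a fold of 1.57, with an adjusted p of 0.0027 from edgeR. The size rested on which control library was used: without control a it was 0.32 with an adjusted p of 0.121 (edgeR), and without control b it was 1.07. DESeq2, given the same counts, put the adjusted p at 0.218. HSPA5 shared no annotated exon with another gene.

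HSP90B1 (GRP94; ENSG00000166598, chr12:103930107-103953645, plus strand) is the Hsp90 of the ER, which folds integrins and Toll-like receptors. It stood at 207 and 224 CPM in control and at 401 and 326 CPM in SNP. The groups were well separated, with the SNP libraries further apart than the controls. Its log2 fold change was 0.75 (SE 0.105, interval 0.54 to 0.97; fold 1.69), with an adjusted p of 2.7e-05 (edgeR). Of its 4695 exonic bases, 357 overlap other annotated genes, among them the microRNA gene MIR3652 and C12orf73. Whether the counting was stranded is not given in the sources used here, so reads from overlapping genes cannot be told apart.

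HYOU1 (GRP170; ENSG00000149428, chr11:119044189-119057202, minus strand) is a large relative of Hsp70 that exchanges nucleotide on HSPA5. It had the largest fold change of the 10 genes: its level was 83.7 and 91.4 CPM in control and 168 and 172 CPM in SNP. The 2 libraries of each group lay close together and the groups far apart. The log2 fold change was 0.96 (SE 0.106, interval 0.74 to 1.18; fold 1.94), with an adjusted p of 1.9e-06 (edgeR), and it stayed between 0.89 and 1.02 when any library was left out. The gene model AP003392.3 overlaps 666 of its 7694 exonic bases.

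The lectin chaperones, which bind glycoproteins that still carry a trimmed glucose, were unequal. CANX, calnexin, the membrane-bound lectin (ENSG00000127022, chr5:179678628-179730925, plus strand), had 341 and 336 CPM in control and 625 and 530 CPM in SNP. The control libraries were almost equal and the SNP libraries both far above them. Its log2 fold change was 0.77 (SE 0.0961, interval 0.57 to 0.97; fold 1.71), with an adjusted p of 7.3e-06 (edgeR). CALR, calreticulin, its soluble partner in the lumen (ENSG00000179218, chr19:12938578-12944489, plus strand), had 153 and 169 CPM in control and 157 and 141 CPM in SNP. The groups overlapped. Its log2 fold change was -0.11 (SE 0.105, interval -0.33 to 0.11) and its adjusted p 0.475 (edgeR), so a rise as large as that of CANX lay outside its interval, whereas a small change in either direction did not. Exons of other genes overlap 150 of 6235 bases in CANX (CBY3) and 270 of 2714 in CALR (AC092069.1). Within each library the ratio of CANX to CALR, in TPM, was 0.972 and 0.863 in control and 1.73 and 1.64 in SNP. This was a change of 1.84-fold with no overlap. In TPM the RNA of the membrane-bound form thus went from slightly below that of the soluble form to well above it. Which form stands higher depends on the lengths used, whereas the change of the ratio does not. TPM were not corrected for base composition. With offsets for length, GC and the excess of guanine over cytosine (below), the log2 fold changes were 0.43 (CANX) and -0.016 (CALR). The listed pseudogene CALR4P and the testis relative CALR3 were at 0 in all libraries.

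The protein disulfide isomerases form and rearrange disulfide bonds. PDIA6 (P5; ENSG00000143870, chr2:10783391-10837977, minus strand), which also restrains the activated sensors, had 130 and 145 CPM in control and 236 and 198 CPM in SNP. The groups did not overlap, and the log2 fold change was 0.66 (SE 0.109, interval 0.44 to 0.89; fold 1.58), with an adjusted p of 1.4e-04 (edgeR). ATP6V1C2 and other genes overlap 1033 of its 4101 exonic bases. PDIA3 (ERp57; ENSG00000167004, chr15:43746392-43773279, plus strand), the isomerase that works with calnexin and calreticulin, had 99.6 and 110 CPM in control and 142 and 133 CPM in SNP. Its rise was smaller, at 0.39 (SE 0.107, interval 0.17 to 0.62; fold 1.31), with an adjusted p of 0.0094 (edgeR), and without control a it was 0.32 with an adjusted p of 0.167 (edgeR). ELL3 accounts for 627 of the 803 bases that overlap other genes in its 4240 exonic bases, and its processed pseudogenes PDIA3P1 and PDIA3P2 were listed at 0.

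PDIA4 (ERp72; ENSG00000155660, chr7:149003062-149028641, minus strand) has several thioredoxin-like active sites. It had 71.7 and 79.9 CPM in control and 92.8 and 91.8 CPM in SNP. The groups did not overlap, but the log2 fold change of 0.29 (SE 0.114, interval 0.049 to 0.52) had an adjusted p of 0.0681 (edgeR) and was not called. The ratio of PDIA6 to PDIA4, in TPM, was 1.44 and 1.45 in control and 2.03 and 1.72 in SNP. P4HB, the classical disulfide isomerase, chosen here after its values were seen, had a log2 fold change of 0.00 (adjusted p of 0.982, edgeR), and the ratio of PDIA6 to P4HB went from 1.20 and 1.26 to 2.21 and 1.69.

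XBP1 (ENSG00000100219, chr22:28794555-28800597, minus strand) encodes the transcription factor made after splicing by IRE1, and raises its own gene under ER stress. Its level was 46.7 and 54.7 CPM in control and 42.5 and 45.9 CPM in SNP. Both SNP libraries were below both controls, by less than the test could call: the log2 fold change was -0.19 (SE 0.134, interval -0.47 to 0.084) with an adjusted p of 0.308 (edgeR). HERPUD1 (ENSG00000051108, chr16:56932048-56944863, plus strand), a membrane protein of ER-associated degradation and a sensitive target of the response, had 20.8 and 24.5 CPM in control and 16.7 and 18.0 CPM in SNP. It too was lower in both SNP libraries, with a log2 fold change of -0.38 (SE 0.181, interval -0.76 to -0.0029) and an adjusted p of 0.130 (edgeR). Neither gene shares exons with another gene, and the pseudogene XBP1P1 was listed at 0. HSPA5 over HERPUD1, in TPM, went from 7.16 and 10.2 to 17.9 and 18.2, and HSPA5 over XBP1 from 1.87 and 2.69 to 4.13 and 4.20.

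Splicing of XBP1 itself was not measured, since the count table gives 1 value per gene. The stretch that IRE1 removes is shown because it is the signal that a count per gene cannot carry. In GENCODE 29, 2 of 7 XBP1 transcripts lack 26 bases at this place, and the stretch chr22:28796109-28796164 (GRCh38, minus strand) holds them, with the removed bases in capitals.
XBP1: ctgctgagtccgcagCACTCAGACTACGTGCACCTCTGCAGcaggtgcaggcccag

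**Figure D2:**
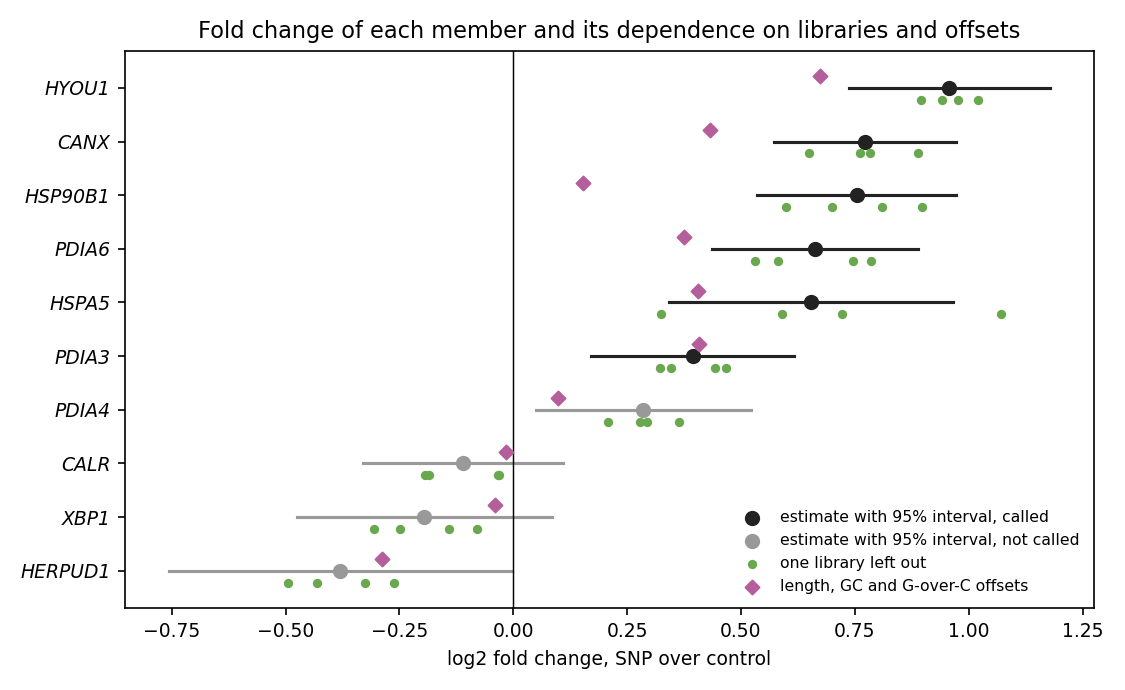
Log2 fold change (SNP over control) of each of the 10 genes. Large points with bars are the estimate and its 95% interval (black called, grey not called), small green points leave out 1 library each, and diamonds add offsets for length, GC and the excess of guanine over cytosine. Leaving out a control library moves HSPA5 between 0.32 and 1.07, and the diamond of HSP90B1 lies at 0.15 against an estimate of 0.75.

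Ordered by length-corrected level, control cells had most CALR (279 ± 24.4 TPM, SD, n = 2 here and below), then CANX (255 ± 0.902), HSP90B1 (216 ± 14.7), HSPA5 (183 ± 68.0), PDIA6 (158 ± 14.7), PDIA3 (116 ± 9.77), PDIA4 (109 ± 9.78), XBP1 (78.8 ± 9.81), HYOU1 (53.6 ± 4.05) and HERPUD1 (20.7 ± 2.66). The libraries of HSP90B1 and HSPA5, of HSPA5 and PDIA6, and of PDIA3 and PDIA4 overlapped in that order. In SNP the order was CANX (473 ± 39.7 TPM), HSP90B1 (394 ± 44.7), HSPA5 (311 ± 30.4), CALR (280 ± 12.9), PDIA6 (270 ± 24.7), PDIA3 (166 ± 2.34), PDIA4 (144 ± 3.61), HYOU1 (113 ± 5.62), XBP1 (74.7 ± 6.43) and HERPUD1 (17.3 ± 1.46). CALR thus passed from the first place to the fourth at an almost equal level, its libraries overlapping those of PDIA6, and HYOU1 passed XBP1.

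The fold changes of the 10 genes were ordered much like the base composition of their transcripts. The excess of guanine over cytosine, in percentage points of transcript bases, was 7.02 for HSP90B1, 4.59 for HYOU1, 4.53 for CANX, 4.40 for PDIA6, 4.12 for HSPA5 and 4.01 for PDIA4, all at or above the 88.5th percentile of genes tested. It was 1.23 for PDIA3, 0.954 for CALR, 0.200 for XBP1 and 0.189 for HERPUD1, between the 37.4th and the 52.7th percentile. Over these 10 genes Spearman's rho between this excess and the log2 fold change was 0.952, and over 14724 genes with a composition it was 0.480; these are correlations across genes, which share the same 4 libraries and are not independent replicates. When offsets for length, GC and this excess were added to the fit, 4 of the 10 genes were called higher, against a background of 9.97%: HYOU1 (0.67), CANX (0.43), PDIA3 (0.41) and PDIA6 (0.37). HSPA5 then had 0.41 with an adjusted p of 0.118 and HSP90B1 0.15 with an adjusted p of 0.169 (edgeR), and the median of the 10 was 0.26 against 0.0062 over all genes. Spearman's rho over the 10 genes was 0.721 with these offsets. The part of base composition in the result was not tested further. Without control a, 4 of the 10 genes were called higher, against a background of 8.64%: HYOU1, CANX, HSP90B1 and PDIA6. HYOU1, CANX and PDIA6 were thus called under both.

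**Figure D3:**
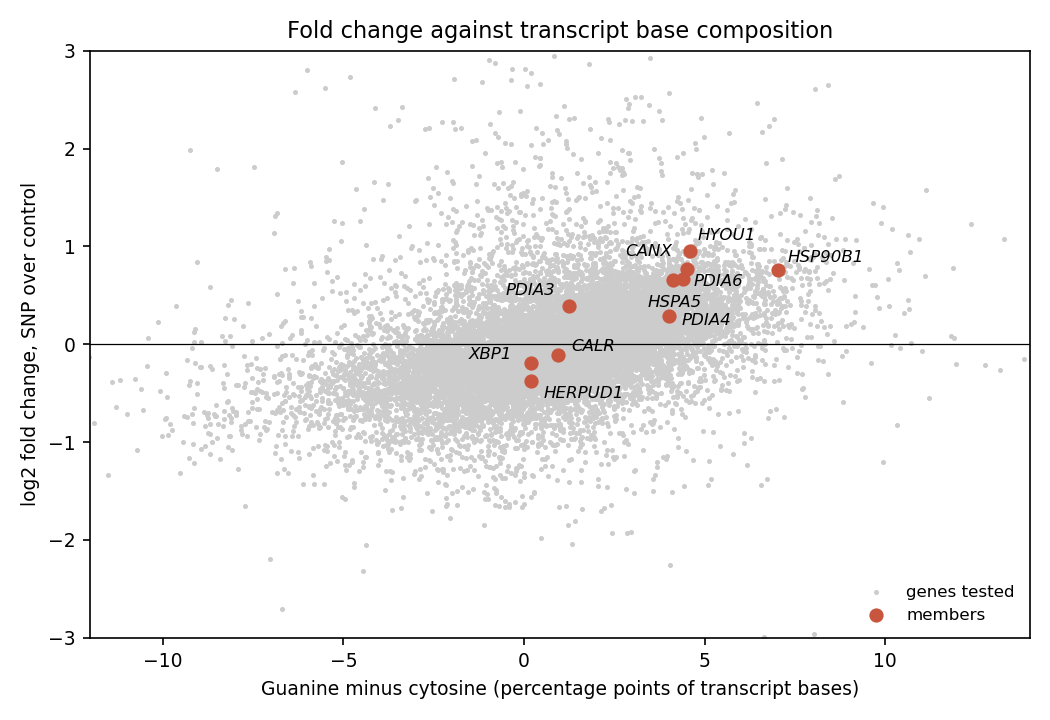
Log2 fold change (SNP over control) against the excess of guanine over cytosine in the transcripts of each gene, in percentage points. Grey points are genes tested, of which 82 lie outside the axes, and red points are the 10 genes; 6 of these lie at an excess of 4.01 points or more, all with positive fold changes, and XBP1 and HERPUD1 lie near 0.

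The rest of the machinery was described by 8 lists of other genes, likewise chosen with earlier results of these data known. They held 140 genes in all, of which 138 were tested. Of these 30 were called higher and 17 lower (34.1%, beside 26.2% of all genes tested), with a median log2 fold change of 0.13. The lists moved in both directions except 2: the glycoprotein folding cycle, where no gene was called, and the cytosolic and mitochondrial relatives of the chaperones, where no gene was called lower. Of the 47 called genes, 22 were called with each library left out in turn. With the offsets for length, GC and guanine excess 23 of the 47 were also called. These offsets called 31 of the 138 in all, 18 higher and 13 lower, and the median of the 138 was 0.016. Over all genes tested they called 2768 of 14759, 1471 higher and 1297 lower.

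Among other folding genes of the ER, 7 of 32 rose and 3 fell (31.25% called, beside 26.2% of all genes tested), with a median of 0.17. Under the composition offsets 3 of the 32 were called higher and 4 lower, with a median of -0.037, and 6 of the 10 calls were kept. ERP29, a redox-inactive relative of the isomerases, had 22.2 and 23.4 CPM in control and 49.1 and 45.3 CPM in SNP (log2 fold change 1.05, SE 0.149, adjusted p of 3.3e-05, edgeR). MANF, a secreted neurotrophic factor that binds HSPA5, had 15.9 and 19.9 CPM in control and 36.1 and 31.9 CPM in SNP (0.93, SE 0.173, adjusted p of 4.4e-04, edgeR). Both were called in every setting that left out a library and with the composition offsets. PRDX4, the peroxiredoxin of the ER that turns hydrogen peroxide into disulfides, went the other way, from 17.0 and 17.8 CPM to 9.06 and 8.69 CPM (-0.97, adjusted p of 0.0020, edgeR). DNAJC1, a J-domain partner of HSPA5, fell by 0.69 on the log2 scale, and by 0.54 without control a, where its adjusted p was 0.17 (edgeR). Chosen after the promoters were searched, the 4 genes of this list with either form of the element in a window (CRELD2, ERO1B, SDF2L1 and SERP1, of 29 in the table) had log2 fold changes of 0.26, 0.02, -0.31 and 0.13, and none was called.

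The glycoprotein cycle trims and restores the glucose that calnexin and calreticulin read. None of its 10 genes was called by edgeR or DESeq2, and their median was 0.14. An unadjusted p under 0.05 in edgeR was found for 2 of the 10, beside 5548 of the 14759 genes tested. With the composition offsets 2 of the 10 were called higher, beside 9.97% of all genes tested.

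Of 24 genes of ER-associated degradation, which returns misfolded proteins to the cytosol, 5 rose and 4 fell, with a median of 0.085. The share called was 37.5%, beside 26.2% of all genes tested. The largest rises by the rule were SELENOS, a membrane selenoprotein of the retrotranslocation complex (0.72), and OS9, a lectin that selects substrates (0.50). The largest falls were RNF5, a membrane ubiquitin ligase (-1.01), and EDEM2, which trims mannose (-0.86). All 4 lost their call without some library: SELENOS had an adjusted p of 0.057 without control a and 0.065 without SNP a, OS9 of 0.14 without control a (log2 fold change 0.42), RNF5 of 0.17 without control a and 0.068 without SNP b, and EDEM2 of 0.053 or more without control a, control b or SNP b (edgeR). SEL1L and SYVN1, partners in the main ubiquitin ligase of this pathway and named after their values were seen, had 0.49 and -0.56, both called, SYVN1 not without control b or SNP a (adjusted p of 0.077 and 0.078, edgeR). With the composition offsets 1 of the 9 calls was kept, that of RNF5 (-1.23). SELENOS then had 0.30, OS9 0.23, EDEM2 -0.64, SEL1L 0.23 and SYVN1 -0.04, none of them called.

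Of 25 genes of translocation into the ER and N-glycosylation, 5 rose and 4 fell, with a median of 0.0087. The share called was 36.0%, beside 26.2% of all genes tested. SRP54, which reads signal peptides, had 51.5 and 58.2 CPM in control and 89.3 and 76.0 CPM in SNP (0.59), and SEC62, a channel partner, 113 and 108 CPM against 175 and 155 CPM (0.58). SSR4, a subunit of the translocon-associated complex, went from 21.0 and 22.2 CPM to 8.43 and 8.95 CPM (-1.31, adjusted p of 7.9e-05, edgeR), and RPN2, of the oligosaccharyltransferase, from 177 and 200 CPM to 128 and 126 CPM (-0.57, adjusted p of 3.5e-04, edgeR). All of these were called with each library left out, and of the 4 only SSR4 was called with the composition offsets (-0.98).

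The sensors IRE1, PERK and ATF6 did not pass. ERN1 (IRE1) had 22.7 and 20.2 CPM in control and 28.3 and 23.0 CPM in SNP (0.25, adjusted p of 0.304), EIF2AK3 (PERK) 23.1 and 19.5 against 25.1 and 24.8 CPM (0.22, adjusted p of 0.372), and ATF6 125 and 140 against 138 and 125 CPM (-0.01, adjusted p of 0.956; edgeR throughout). Of the 12 genes of this list that were tested, 1 rose and 2 fell. This share (25.0%) was near the 26.2% called over all genes tested. NFYB, a subunit of the factor that binds the CCAAT part of the element, rose by 0.67 on the log2 scale (adjusted p of 0.0061), while its partner NFYC had -0.43 (adjusted p of 0.043) and ATF6B -0.45 (adjusted p of 0.023, all edgeR). None of these was called with the composition offsets. NFYB was lost without control b (adjusted p of 0.072, edgeR), ATF6B without control a, control b or SNP a (0.052, 0.22 and 0.075), and NFYC whichever library was left out (0.056 to 0.29). CREB3L1 had at most 2 counts per library and was not tested.

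Of the 10 outputs of PERK, 2 were called higher and 1 lower, with a median of 0.0047, a share near the 26.2% called over all genes tested. With the composition offsets 3 were called higher and none lower, beside 9.97% called higher over all genes tested. ATF4, the transcription factor of that branch, had 40.9 and 45.1 CPM in control and 51.9 and 45.6 CPM in SNP (0.18, adjusted p of 0.342, edgeR). DDIT3 (CHOP), its target tied to cell death, had between 23 and 48 counts per library and overlapping groups (-0.21, adjusted p of 0.725, edgeR). PPP1R15A (GADD34), which reverses the translation block, rose from 10.3 and 9.76 CPM to 19.4 and 17.4 CPM (0.87, adjusted p of 0.0037, edgeR) and was called with each library left out and with the offsets (0.95). The other 2 calls, named after their values were seen, were ATF3, a stress-induced transcription factor (1.23), and CHAC1, which degrades glutathione (-1.32). ATF3 had an adjusted p of 0.19 without control a and 0.27 without SNP a, and CHAC1 of 0.40 without control a, 0.063 without SNP a, 0.14 without SNP b and 0.18 with the offsets (edgeR).

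The calcium store list, whose pumps and channels set the calcium that calreticulin and calnexin bind, had 2 of 14 tested genes higher and 3 lower. Its median was 0.19, and 35.7% were called, beside 26.2% of all genes tested. ATP2A2 (SERCA2), the pump that fills the store, went from 300 and 336 CPM to 425 and 392 CPM (0.36, adjusted p of 0.0074, edgeR; without control a 0.28 and 0.14). CALU, a calcium binder of the lumen, had 0.39 (adjusted p of 0.0062, and 0.061 without control b, edgeR). SELENON, a selenoprotein that protects the pump, fell from 131 and 129 CPM to 70.5 and 72.6 CPM (-0.86, adjusted p of 8.2e-06, edgeR), and ORAI1, the channel of the plasma membrane, from 9.10 and 9.94 CPM to 3.15 and 5.71 CPM (-1.10, adjusted p of 0.012, edgeR; without SNP a -0.73 and 0.13). With the composition offsets SELENON had -0.35 and ATP2A2 0.33, both still called, while ORAI1 had -0.60 (adjusted p of 0.16) and CALU 0.21 (adjusted p of 0.053, edgeR).

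**Figure D4:**
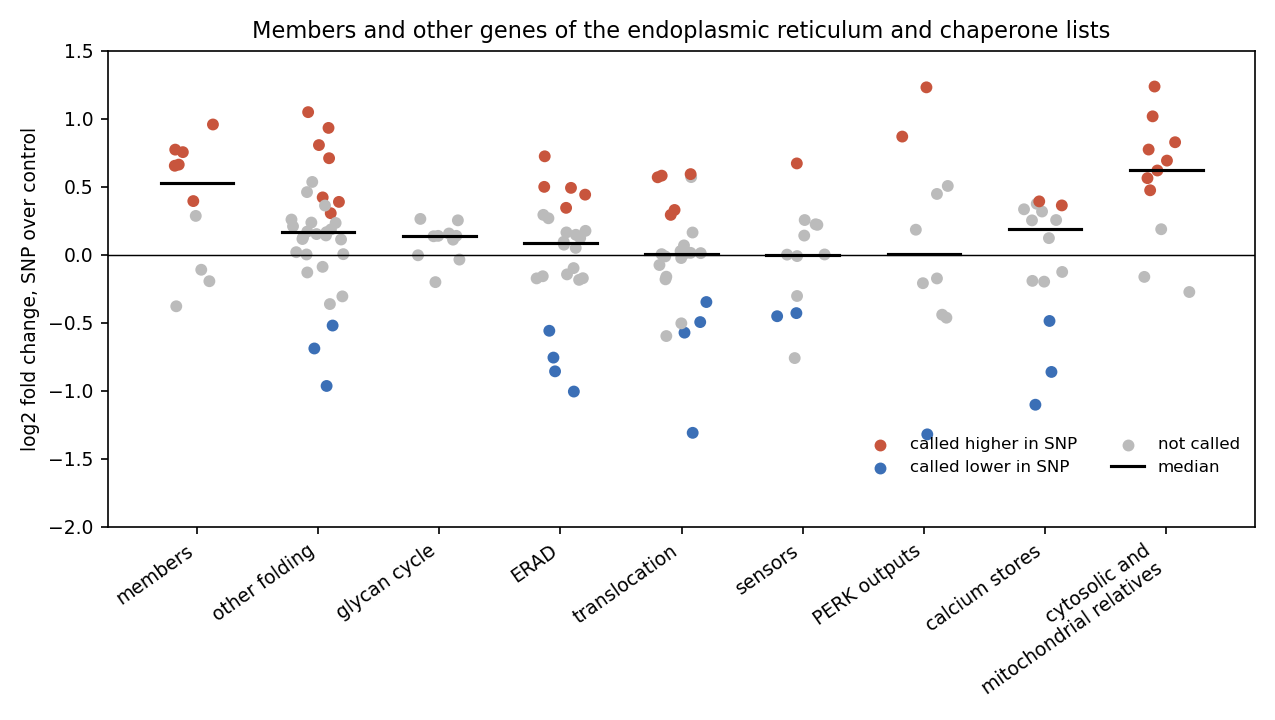
Log2 fold change (SNP over control) of the 10 genes (leftmost, labelled members) and of 138 other tested genes in 8 lists. Points are genes, red called higher, blue called lower, grey not called, and bars are medians; the medians of the 10 genes (0.52) and of the cytosolic and mitochondrial relatives (0.62) lie above those of the other lists (0.0012 to 0.19).

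Relatives of the chaperones outside the ER were also higher. Of 11 such genes 8 rose and none was called lower (72.7% called, beside 26.2% of all genes tested). Their median was 0.62, beside 0.52 for the 10 ER genes, and 7 of the 8 were also called with the composition offsets. With those offsets the median fell to 0.30, HSPH1 had 0.62 and HSP90AA1 0.30, and 1 gene, HSPA8, was called lower (-0.28, adjusted p of 0.0073, edgeR). HSPA4L and HSPH1, cytosolic relatives of HYOU1, had 41.8 and 45.1 against 98.4 and 106 CPM (1.24, adjusted p of 3.8e-07, edgeR) and 178 and 181 against 388 and 339 CPM (1.02, adjusted p of 3.8e-07, edgeR). HSP90AA1, the inducible cytosolic Hsp90, had 739 and 601 CPM in control and 1150 and 909 CPM in SNP (0.62, adjusted p of 2.7e-04, edgeR), and HSP90AB1 650 and 605 against 939 and 805 CPM (0.47, adjusted p of 7.3e-04, edgeR). HSPA8, the constitutive cytosolic Hsp70, was not called without the offsets, at 669 and 622 CPM in control and 601 and 551 CPM in SNP (-0.16, adjusted p of 0.191, edgeR). Members of this family are alike in sequence, most of all HSPA1A and HSPA1B, and how reads that fit several of them were counted is not given in the sources used here.

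Set against a cytosolic relative in the same library, the ER form was higher with SNP in part of the pairs. HSPA5 over HSPA8, in TPM, was 0.210 and 0.379 in control and 0.468 and 0.560 in SNP, and HSP90B1 over HSP90AB1 0.202 and 0.235 against 0.271 and 0.257, with no overlap in either. HSP90B1 over HSP90AA1 was 0.313 and 0.416 against 0.389 and 0.401, and HYOU1 over HSPH1 0.513 and 0.550 against 0.472 and 0.553, so these groups overlapped. HYOU1 over HSPA5 overlapped as well, at 0.376 and 0.244 in control and 0.376 and 0.351 in SNP. A ratio shows unequal change and not which gene moved. None of the ratios given here and above includes the offsets for base composition. With those offsets HSP90B1 rose less than HSP90AB1 (log2 fold changes of 0.15 and 0.27), the reverse of the order in their ratio. The order of HSPA5 and HSPA8 was kept.

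**Figure D5:**
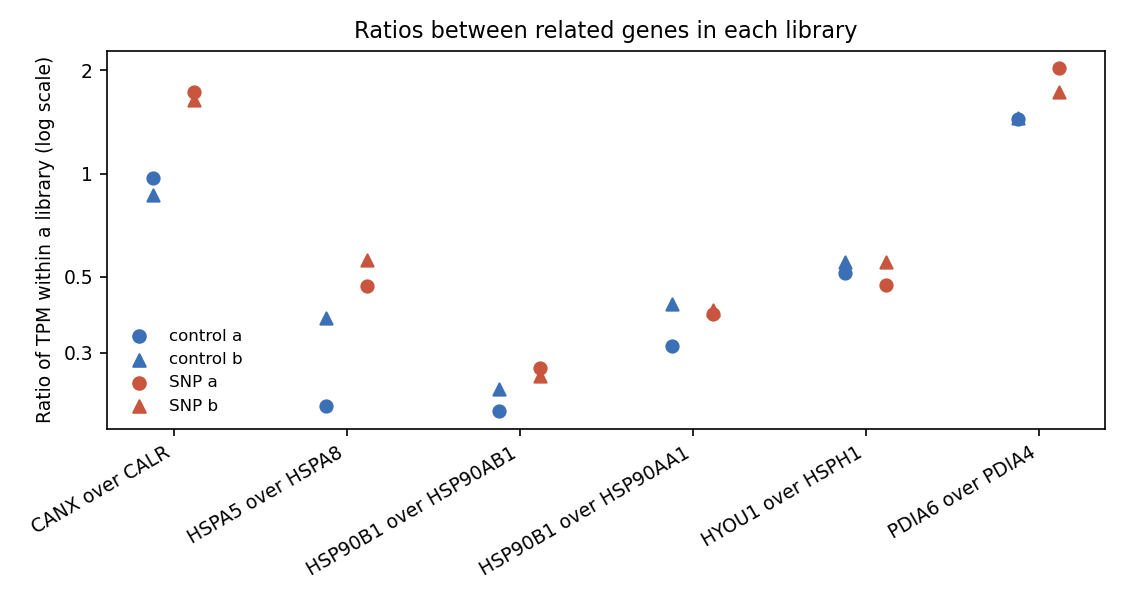
Ratio of TPM between related genes within each library, on a log axis. Points are libraries (circle a, triangle b; blue control, red SNP); the groups are apart for CANX over CALR, HSPA5 over HSPA8, HSP90B1 over HSP90AB1 and PDIA6 over PDIA4, and overlap for HSP90B1 over HSP90AA1 and HYOU1 over HSPH1.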

How the data were processed

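RNA of 2 control and 2 SNP libraries of SH-SY5Y cells was sequenced (75 bp, 40 M reads labelled for each). Each deposited table gives per gene a whole-number read count, a TPM and an RPKM value, per the file headers. The genome build was GRCh38, per the submitters' processing notes; aligner, counter and use of strand are not given in the sources used here. The deposited counts held 11.5% to 13.3% of the reads implied by the RPKM values that the authors deposited. Of 58243 gene identifiers, 57980 were found in GENCODE 29, the source of positions, overlaps and base composition; promoter windows came from RefSeq.

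Counts were tested with edgeR 4.0.16 in R 4.3.3: filterByExpr (minimum count 10, minimum total 15), TMM, and the quasi-likelihood test over all 4 libraries, without covariate, adjusted over 14759 genes at 0.05. CPM are relative to TMM-scaled library sizes; deposited TPM were used for levels between genes and ratios. DESeq2 1.42.0 and limma 3.58.1 served as alternatives. Intervals are 95%. The tests were tried on simulated counts first. Offsets were lowess trends (span 0.5), fitted for each library on length, GC and guanine over cytosine in turn. The fitted value was the deviation of a gene's log2 CPM from its mean over the libraries.

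The 10 genes, the 8 lists and the naming rule were chosen with earlier results of these data known. The rule named, besides the 10 genes, up to 2 called genes with the largest rise and 2 with the largest fall per list at a mean of at least 5 CPM, plus HSPA8, HSP90AA1, HSP90AB1, HSPH1, ERN1, ATF6, EIF2AK3, DDIT3 and ATF4, and the 3 genes closest to HSPA5. No pairing by the letters a and b was seen: the correlation across genes of the a-minus-b deviations between the groups was 0.047. A low value cannot exclude that the libraries were paired. Protein sequences were not used here. Another list of cell type markers is not reported here.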

Additional observations from a re-analysis of the deposited data

How the results depend on the processing

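Of 164 alternative estimates for the 10 genes, 154 kept their direction and their side of the threshold. HSPA5 lost its call with DESeq2, with the guanine-over-cytosine offsets and without control a, HSP90B1 with those offsets, and PDIA3 without control a, with the values given above. PDIA4 was called with the replicate block (0.29, adjusted p of 0.042, edgeR), with length and GC offsets (0.37, 0.0066) and with both (0.37, 0.0040). CALR changed sign, to 0.020 with length and GC offsets and to 0.017 with the replicate block as well, without a call; the cause was not tested. CANX, HYOU1 and PDIA6 were called in each of 16 alternatives.

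Over all genes, 3861 were called; DESeq2 called 2415, an adjusted p under 0.01 left 2224, a log2 fold change of at least 1 in size left 647, genes without exon overlap gave 2018 of 7241, and leaving out 1 library gave 2471 (without control b) to 4096 (without SNP b), with 2501 without control a. The replicate block, which treats the letters as pairs although no pairing was seen, gave 4487. Of the 10 genes, 4 to 7 were called across scalings, filters, tools, offsets and libraries left out. Of the 4 without exon overlap 1 was called (fewer genes tested). An unadjusted p under 0.05 in edgeR was found for 8 of the 10, beside 5548 of the 14759 genes tested. A log2 fold change of 1 was reached by 0 of the 10 in edgeR as reported or in DESeq2. Under other settings HYOU1 reached 1.03 (length and GC offsets, or read totals implied by RPKM) and 1.02 (without control b), and HSPA5 1.07 (without control b). Of the 138 other genes 31 were called with the guanine-over-cytosine offsets (18 higher, 13 lower), and 28 to 49 with 1 library left out, the fewest without control a. Over all 14759 genes tested, the guanine-over-cytosine offsets called 2768 (1471 higher, 1297 lower). Depth limits the genes of low count most: DDIT3, with 23 to 48 counts per library, had an interval from -0.99 to 0.57.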

Other observations

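Among genes averaging 50 CPM or more, those whose log2 CPM over the 4 libraries, centred on the mean, lay closest to that of HSPA5 (4977 candidates, named by rule) were SMN1 (Euclidean distance 0.330), TFRC (0.332) and HSPA1B (0.343). SMN1 had 58.3 and 86.5 CPM in control and 96.8 and 93.4 CPM in SNP, TFRC 126 and 163 against 251 and 229 CPM, and HSPA1B 40.9 and 53.6 against 81.2 and 70.9 CPM. Each shared with HSPA5 a control b above control a. SMN1 and HSPA1B have near-identical copies (SMN2 and HSPA1A), so their counts are uncertain, and a likeness over 4 libraries is a description only.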
